A study of Homo sapiens with 6 samples.

Results

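The genes described here were 9 markers and drivers of the epithelial-mesenchymal transition (EMT), taken by name from the 26334 genes (51398 RefSeq isoforms) quantified in the series: the epithelial adhesion genes CDH1 and EPCAM, the mesenchymal markers CDH2 and VIM, and the transcription factor genes SNAI1, SNAI2, TWIST1, ZEB1 and ZEB2. All 9 were found, and the isoforms of each were summed to a gene total in every library. RNA-Seq had been performed in PC-9 cells, a human lung adenocarcinoma line that carries an activating EGFR deletion and an intact RBM10 gene, grown in RPMI with FBS and given no treatment. By the sample labels, there were 3 conditions with 2 libraries each. Cells expressed the control hairpin shScr (scramble) or 1 of 2 short hairpin RNAs against RBM10, shRBM10#1 and shRBM10#2. By these labels the controls also carried a hairpin. The study's Results name shScr as well, whereas its methods for this RNA-Seq name parental PC-9 cells. RBM10 is an RNA-binding protein that regulates splicing, and the comparison asked how the transcriptome differed after its knockdown (KD) in one EGFR-mutant line.

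In EMT, epithelial cells lose the junctions that hold them in a sheet and take on the shape and motility of mesenchymal cells. E-cadherin (CDH1) and EPCAM sit at contacts between epithelial cells, whereas N-cadherin (CDH2) and the intermediate filament protein vimentin (VIM) are used as marks of the mesenchymal state. The SNAI, TWIST and ZEB proteins are transcription factors that act on this switch, in part by binding E-box sequences at CDH1 and repressing it, and TGF-β is among the signals that induce them in carcinoma cells. EMT is known in lung adenocarcinoma lines as one of the states seen with resistance to EGFR inhibitors.

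The libraries held 31953729 to 37557507 expected counts (RSEM's estimated read counts). Their mean fragment length was 265 to 281 nt in 5 libraries and 231 nt in shScr replicate 2. The TPM values of that library (a level per length, scaled to the same sum in every library) thus rest on longer effective lengths. RBM10 itself measured 83.2 and 86.2 CPM (counts scaled to a common library size) in shScr, 59.8 and 56.4 with shRBM10#1, and 27.2 and 26.9 with shRBM10#2. RBM10 was thus lower with both hairpins and lowest with shRBM10#2, at log2 fold changes (FC) of -0.54 ± 0.07 (SE) and -1.65 ± 0.07 against shScr (edgeR quasi-likelihood test, Benjamini-Hochberg adjusted p = 0.000228 and 5.1e-08). The epithelial label held, since the 6 epithelial markers were all at 1 TPM or more in every library and summed to 22290 to 28530 TPM, led by KRT8 at 8360 to 10600 TPM. The 5 fibroblast markers summed to 2.02 to 2.94 TPM, nearly all of it COL1A1, and DCN and LUM were at or near 0. The 3 endothelial markers summed to 6.02 to 12.7 TPM, highest with shRBM10#1 and mostly from CDH5 (4.65 to 10.9 TPM). CDH5 and PECAM1 were higher with shRBM10#1 (log2 FC 0.954 and 0.537, edgeR adjusted p = 0.000411 and 0.0459). VWF was lower with shRBM10#2 (-0.962, edgeR adjusted p = 0.042). The 3 blood cell markers summed to 76.98 to 116.5 TPM, almost entirely from CD68 (a lysosomal protein that epithelial lines also express), with PTPRC and CD3E at or near 0. The part of these markers in any result was not tested.

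PC-9 cells carried the epithelial end of this set in all 3 conditions, and a single member was called after RBM10 KD. EPCAM and CDH1 were at 110.6 TPM or more in every library, SNAI1 and SNAI2 at 1.70 to 4.31 TPM, and VIM, CDH2, TWIST1, ZEB1 and ZEB2 were below 1 TPM in every library. 6 members (CDH1, EPCAM, CDH2, VIM, SNAI1 and SNAI2) passed the filter on low counts and were tested among 14217 genes; TWIST1, ZEB1 and ZEB2 did not. With shRBM10#2 against shScr, 1 of these 6 was called at an adjusted p below 0.05, where 25.9% of all genes tested were called. That gene was EPCAM, which rose 1.18-fold. With shRBM10#1 against shScr, 0 of 6 were called by the edgeR quasi-likelihood test, against 14.0% of all genes; 1 of 6 had an unadjusted p below 0.05 (SNAI2), and DESeq2 also called 0.

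Comparing the hairpins with each other called 0 of 6 members, against 25.5% of all genes, with 0 at an unadjusted edgeR p below 0.05 and 0 by DESeq2. Pooling the 4 KD libraries into one group, as the study's methods do, likewise called 0 of 6 in edgeR, against 1.62% of genes, with 0 at an unadjusted p below 0.05 and 0 by DESeq2. RBM10 itself, at a log2 FC of -0.99, was not called in that pooled fit (edgeR adjusted p = 0.146), and was called with one coefficient per condition (-1.10, edgeR adjusted p = 3.14e-07). Adding the study's second criterion, an absolute log2 FC above 1, left 0 of 6 members with either hairpin in edgeR. Of all genes, it left 1.88% with shRBM10#1 and 1.3% with shRBM10#2. The study applied its grouping and criteria to isoform transcripts, whereas gene totals were tested here. The labels do not say that the 2 libraries of a condition came from separate cultures, so p-values measure the spread between these libraries, which may be technical. In bulk RNA, fewer cells that express a gene and less RNA of it per cell cannot be told apart.

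**Figure D1:**
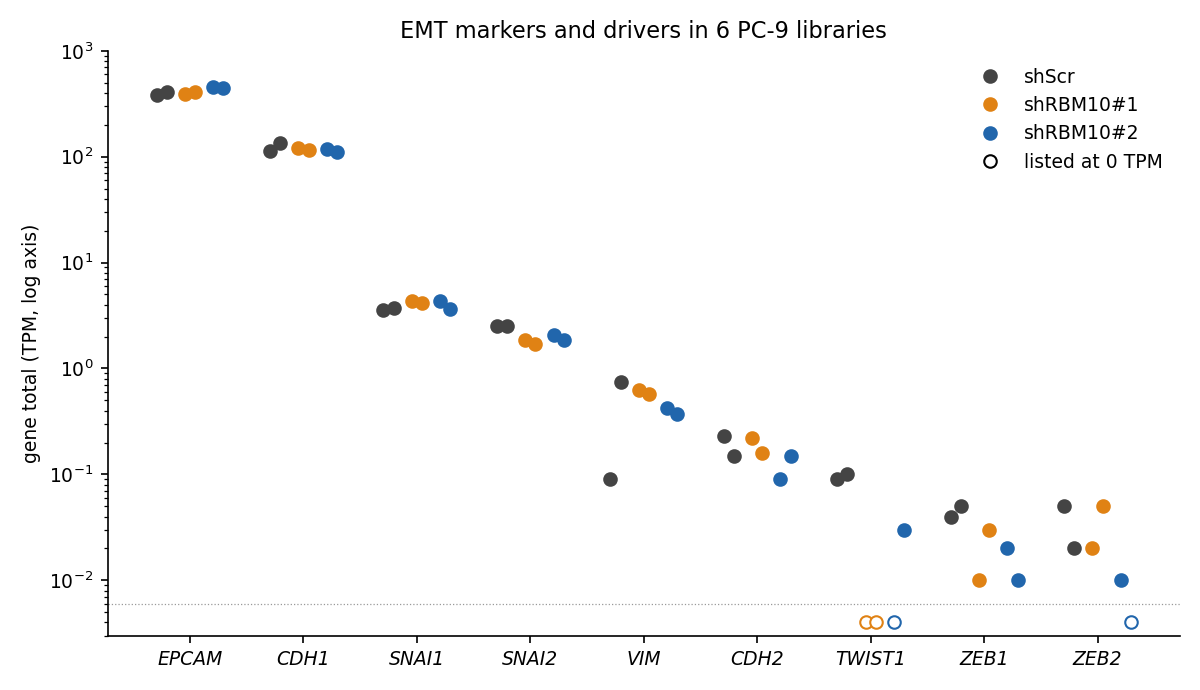
Gene totals in TPM on a log axis for the 9 members, ordered by their mean over the 6 libraries; each point is 1 library, colored by condition, and open points below the dotted line are listed at 0 TPM. EPCAM and CDH1 sat between 110.6 and 454.9 TPM in every library, and VIM, CDH2, TWIST1, ZEB1 and ZEB2 below 1 TPM.

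The members fell into an ordered series of levels per length. EPCAM averaged 414 TPM over the 6 libraries, CDH1 119 TPM, SNAI1 3.95 TPM and SNAI2 2.09 TPM, and no library of one of these overlapped the range of the next. VIM averaged 0.468 TPM and also lay below the range of SNAI2. Further down, the ranges of neighbours overlapped across libraries. VIM was above CDH2 (0.167 TPM) in 5 of 6 libraries, and CDH2 was above TWIST1 (0.0367 TPM) in 6 of 6. TWIST1, ZEB1 (0.0267 TPM) and ZEB2 (0.025 TPM) could not be ordered, since TWIST1 was above ZEB1, and ZEB1 above ZEB2, in 3 of 6 libraries each. EPCAM ranked between 289 and 341 among all genes by mean TPM in the 3 conditions and CDH1 between 1166 and 1199, so both belonged to the highly expressed genes of this line.

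EPCAM encodes a cell surface adhesion protein of epithelia that is also used to capture carcinoma cells. It measured 383.5 and 367.8 CPM in shScr, 385.7 and 422.2 CPM in the shRBM10#1 libraries, and 448.4 and 441.2 CPM in those of shRBM10#2. In CPM, both shRBM10#2 libraries lay above all 4 others, and both shRBM10#1 libraries lay above shScr, the lower of them by a small margin. How many of all genes had such gaps was not counted. In TPM, the shRBM10#1 libraries (387.7 and 409.9) overlapped the range of shScr (379.1 and 408.9). The log2 FC with shRBM10#2 was 0.24 ± 0.07 (SE; 95% interval 0.10 to 0.39; edgeR quasi-likelihood test, Benjamini-Hochberg adjusted p = 0.018). With shRBM10#1 it was 0.11 ± 0.07 (-0.04 to 0.25; adjusted p = 0.329 by edgeR), and between the hairpins 0.14 ± 0.07 (-0.0047 to 0.28; edgeR adjusted p = 0.144), so a difference between the hairpins was not shown. On the TPM scale EPCAM averaged 394 ± 21.1 in shScr, 398.8 ± 15.7 with shRBM10#1 and 449.5 ± 7.67 with shRBM10#2 (SD, n = 2). The call with shRBM10#2 rested on every library it compared but shScr replicate 1: the edgeR adjusted p was 0.0868 without shScr replicate 2 (log2 FC 0.21), 0.167 without shRBM10#2 replicate 1 (0.23) and 0.137 without shRBM10#2 replicate 2 (0.26).

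CDH1 encodes E-cadherin, the calcium-dependent adhesion protein of adherens junctions whose loss is a common mark of EMT. It measured 363.6 and 372.2 CPM in shScr, 376.5 and 371.3 CPM in the shRBM10#1 libraries, and 368.5 and 343.8 CPM in those of shRBM10#2. The ranges of shScr overlapped those of both hairpins. With 11778 to 13683 counts behind each value, the intervals were narrow, at -0.11 to 0.16 on the log2 scale for shRBM10#1 (log2 FC 0.02), -0.18 to 0.09 for shRBM10#2 (-0.05) and -0.18 to 0.15 for the pooled KD libraries (-0.01). A loss of CDH1 RNA below 0.88 times its shScr level lay outside the interval with either hairpin.

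**Figure D2:**
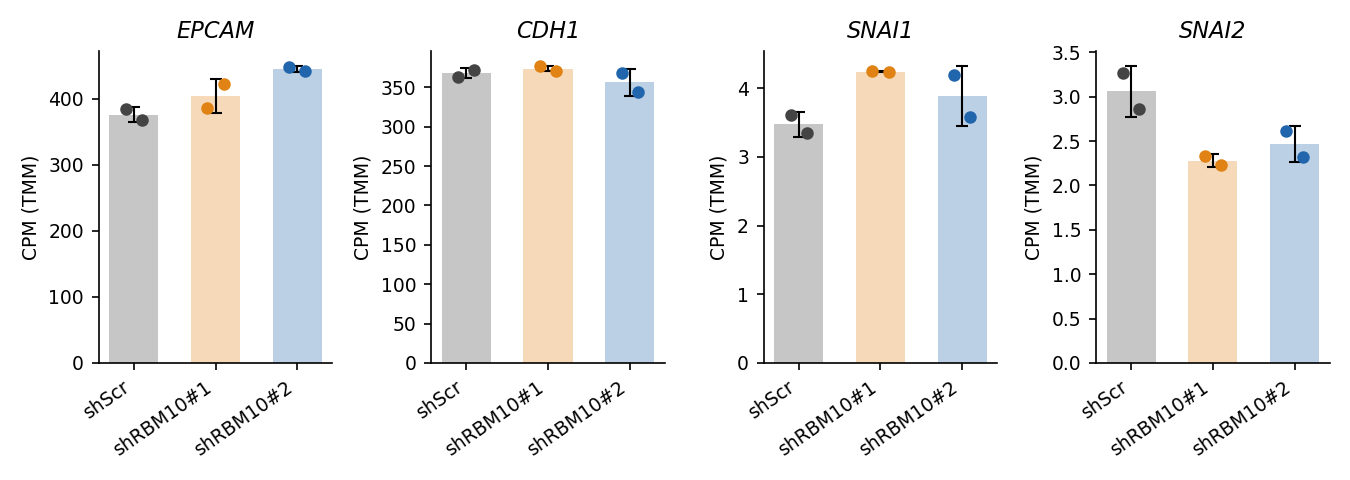
CPM after TMM scaling (linear axes from 0) of EPCAM, CDH1, SNAI1 and SNAI2, the members with the most counts; points are libraries, bars are condition means and error bars the SD of 2 libraries. EPCAM averaged 444.8 CPM with shRBM10#2 against 375.6 CPM in shScr, and SNAI2 averaged 2.28 and 2.47 CPM with the hairpins against 3.06 CPM in shScr.

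VIM encodes vimentin, the main intermediate filament of mesenchymal cells. Its rounded counts were 4 and 28 in shScr, 25 and 28 with shRBM10#1, and 20 and 18 with shRBM10#2. shScr replicate 1 stood apart from the other 5 libraries, including its own replicate. The log2 FC was 0.67 ± 0.57 (SE; 95% interval -0.56 to 1.90) with shRBM10#1 and 0.04 ± 0.60 (-1.24 to 1.33) with shRBM10#2, neither called (edgeR adjusted p = 0.477 and 0.967). That library set the direction: without shScr replicate 1 the log2 FC was -0.13 with shRBM10#1 and -0.75 with shRBM10#2, and without shScr replicate 2 it was 2.63 with shRBM10#1, then called (edgeR adjusted p = 0.0442). The interval of the fold with shRBM10#1 ran from 0.679 to 3.72 times shScr, and it holds the spread between the shScr libraries as well as counting error.

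CDH2, which encodes the N-cadherin that replaces E-cadherin in the classical cadherin switch, had 21 and 12 counts in shScr, 19 and 15 with shRBM10#1, and 9 and 15 with shRBM10#2. The ranges of the hairpins and shScr overlapped. The log2 FC was -0.01 ± 0.47 (SE; 95% interval -1.02 to 1.00) with shRBM10#1 and -0.66 ± 0.49 (-1.73 to 0.41) with shRBM10#2, neither called (edgeR adjusted p = 0.993 and 0.357). Of the 2 CDH2 isoforms listed, RSEM placed all 19 counts of shRBM10#1 replicate 1 on NM_001792 and all 15 counts of shRBM10#1 replicate 2 on NM_001308176, so replicates of one condition were opposite and no isoform share could be read at these counts.

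The ratios of the markers lay far toward CDH1 in every library. In TPM, CDH1 was 495 and 895 times CDH2 in shScr, 547 and 717 times with shRBM10#1, and 1321 and 737 times with shRBM10#2. The ratio in shRBM10#2 replicate 1 was the farthest from the others and lay toward CDH1. CDH1 was 1266 and 181 times VIM in shScr, 194 and 201 times with shRBM10#1, and 283 and 299 times with shRBM10#2, and the KD libraries lay between the shScr libraries.

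**Figure D3:**
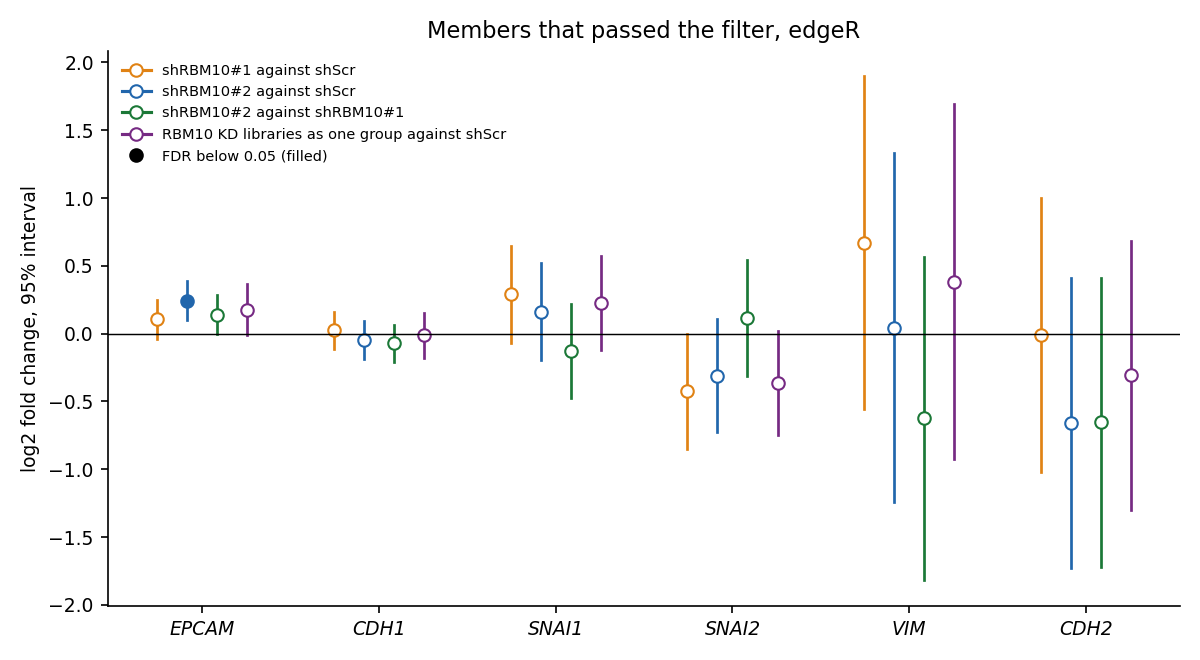
Log2 fold changes (points) with 95% intervals (lines) from edgeR for the 6 members that passed the filter, in 4 comparisons; a filled point has an adjusted p below 0.05. Only EPCAM with shRBM10#2 (0.24) is filled, and the intervals of CDH1 are narrow around 0. Those of VIM and CDH2 span more than 2 log2 units with each hairpin against shScr.

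Among the drivers, SNAI1 (Snail) and SNAI2 (Slug), zinc finger repressors that bind E-boxes, were the only ones above 1 TPM in every library. SNAI1 measured 3.60 and 3.34 CPM in shScr, 4.25 and 4.24 CPM in the shRBM10#1 libraries, and 4.20 and 3.58 CPM in those of shRBM10#2. Both shRBM10#1 libraries lay above shScr, while shRBM10#2 overlapped it. The log2 FC was 0.29 ± 0.16 (SE; 95% interval -0.07 to 0.65) with shRBM10#1 and 0.16 ± 0.16 (-0.19 to 0.52) with shRBM10#2, neither called (edgeR adjusted p = 0.276 and 0.508). SNAI2 measured 3.27 and 2.86 CPM in shScr, 2.33 and 2.23 CPM in the shRBM10#1 libraries, and 2.61 and 2.32 CPM in those of shRBM10#2. All 4 KD libraries lay below both shScr libraries, opposite in direction to SNAI1. For neither gene was the share of all genes with such a gap counted. The log2 FC of SNAI2 was -0.43 ± 0.20 (-0.85 to -0.00079; unadjusted p = 0.0496 by edgeR) with shRBM10#1 and -0.31 ± 0.19 (-0.73 to 0.11) with shRBM10#2, and neither passed the adjustment over all genes (edgeR adjusted p = 0.174 and 0.26). A rise of SNAI1 above 1.56-fold or a fall of SNAI2 below 0.555 of its shScr level lay outside the intervals with either hairpin.

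TWIST1, a helix-loop-helix factor, had 3 and 3 counts in shScr, 0 and 0 with shRBM10#1, and 0 and 1 with shRBM10#2. A count of 0 allowed up to 3 counts in a library (0.0802 to 0.0939 CPM at these depths, covering counting error only), so all conditions were at or under that limit and no fold is given. Its paralog TWIST2, one of the 11 other EMT transcription factors listed and named here after its values were seen, was at 24.6 to 29.5 TPM in every library and was not called with either hairpin (log2 FC 0.11 and -0.13, edgeR adjusted p = 0.52 and 0.369).

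ZEB1 and ZEB2, zinc finger and homeodomain repressors of CDH1, were hardly detected. ZEB1 had 5 and 5 counts in shScr, 1 and 4 with shRBM10#1, and 3 and 1 with shRBM10#2. ZEB2 had 8 and 3 counts in shScr, 3 and 11 with shRBM10#1, and 2 and 1 with shRBM10#2. These counts are too few to order the conditions. The antisense RNA ZEB1-AS1, transcribed from the same locus on the opposite strand, had 49 and 38 counts in shScr, 38 and 36 with shRBM10#1, and 51 and 50 with shRBM10#2. Per length it stood at 0.71 to 1.11 TPM, above the 0.01 to 0.05 TPM of ZEB1 in all 6 libraries. ZEB1-AS1 was not called with either hairpin (log2 FC -0.29 and 0.01, edgeR adjusted p = 0.561 and 0.987). Whether the counting used strand is not given in the sources used here, so reads where the genes overlap cannot be told apart. VIM-AS1 had 0 to 1 counts and ZEB2-AS1 had 0 counts in every library.

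The bases before a start site of VIM and ZEB1 are shown because both genes were below 1 TPM here, and ZEB1 lay below its own antisense partner. RefSeq's promoter table (GRCh38.p14, a later build than the hg19 used for the counts) matched 4 of the 9 members, CDH2, VIM, ZEB1 and ZEB2. The 250 bases before each start were searched for the E-box CAGGTG, read on both strands (CACCTG on the other), a form of the general E-box CANNTG that SNAI and ZEB proteins bind, and it occurs in 17.5% of all 35116 windows of this length in the table. The windows below run from 5′ to 3′ on the + strand, the VIM window at chr10:17227991-17228240 and the first of 7 ZEB1 windows at chr10:31318167-31318416, with the motif in capitals.
VIM: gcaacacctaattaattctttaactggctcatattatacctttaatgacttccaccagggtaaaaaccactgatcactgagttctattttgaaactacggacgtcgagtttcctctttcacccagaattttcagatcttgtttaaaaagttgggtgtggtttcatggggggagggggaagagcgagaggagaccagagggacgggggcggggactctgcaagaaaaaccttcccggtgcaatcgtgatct
ZEB1: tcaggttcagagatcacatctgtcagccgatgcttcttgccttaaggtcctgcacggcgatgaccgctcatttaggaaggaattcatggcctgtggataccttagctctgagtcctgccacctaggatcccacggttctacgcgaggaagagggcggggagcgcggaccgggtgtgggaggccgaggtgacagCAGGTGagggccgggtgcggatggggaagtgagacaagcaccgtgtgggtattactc
The VIM window held no match and overlapped no GENCODE exon. The ZEB1 window held 1 match, beginning 57 bases before the start, and overlapped exons of ZEB1-AS1 on the opposite strand and of no other gene. Over all windows, the motif was in 2 of the 7 ZEB1 windows and in 2 of the 11 windows of the 4 members, with none in those of VIM, CDH2 and ZEB2. A match is a description of the letters and not a measured binding site.

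Genes of the wider program were counted from 4 lists. The epithelial list held 27 junction, keratin and epithelial regulator genes, and all 27 were at 1 TPM or more in every library. With shRBM10#1, 2 rose (CLDN3 and KRT19), 3 fell (TJP1, DSP and OVOL1) and 22 were not called in edgeR, a share called of 18.5% against 14.0% of all genes, and the list's median log2 FC was 0.01, as over all genes (0.01). With shRBM10#2, 3 rose (CTNNA1, OCLN and CLDN3), 8 fell (MUC1, DSP, ST14, JUP, PKP3, KRT19, TJP1 and OVOL1) and 16 were not called, a share of 40.7% against 25.9% of all genes, with a median of -0.12 against 0.01 over all genes. Moves within the list thus went both ways, and tight junction genes were among the genes that rose and those that fell. CLDN3, a claudin of tight junctions, was at 60.0 and 54.3 TPM in shScr, 70.4 and 78.4 TPM in the shRBM10#1 libraries and 70.7 and 71.5 TPM in those of shRBM10#2 (log2 FC 0.46 and 0.36, edgeR adjusted p = 0.00781 and 0.0179). TJP1, the scaffold protein ZO-1, was at 25.1 and 28.4, 20.0 and 15.9, and 21.5 and 22.0 TPM (log2 FC -0.48 and -0.24, edgeR adjusted p = 0.00201 and 0.0478). DSP, the desmosomal plaque protein desmoplakin, was at 48.0 and 64.4, 43.9 and 38.9, and 43.7 and 38.7 TPM (log2 FC -0.33 and -0.39, edgeR adjusted p = 0.0205 and 0.00637). For all 3 of these genes, chosen for their calls, every KD library lay on one side of shScr. The share of all genes with such a gap was not counted.

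KRT19, a keratin of simple epithelia, moved in opposite directions with the hairpins, at 5530 and 5790 TPM in shScr, 6540 and 6440 TPM in the shRBM10#1 libraries and 4420 and 4610 TPM in those of shRBM10#2 (log2 FC 0.28 and -0.28, edgeR adjusted p = 0.012 and 0.00842). OCLN, the tight junction protein occludin, and CTNNA1, α-catenin of the cadherin complex, rose with shRBM10#2 (log2 FC 0.43 for each, edgeR adjusted p = 0.00232 and 0.00183). With shRBM10#1 they stood at -0.09 and 0.14 and were not called. MUC1, a cell surface mucin, fell with shRBM10#2 by 0.44 on the log2 scale (edgeR adjusted p = 0.0208). The calls of TJP1 with shRBM10#1 and of CTNNA1 and ST14 with shRBM10#2 held under all 13 alternatives, and every other call of the list ended without at least 1 library. With shRBM10#1, the edgeR adjusted p became 0.0862 for CLDN3, 0.186 for DSP and 0.0784 for KRT19 without shScr replicate 2, and 0.0626 for CLDN3 and 0.107 for DSP without shRBM10#1 replicate 2. With shRBM10#2 and without shScr replicate 2, it was 0.152 for CLDN3 and 0.0632 for DSP. Without shRBM10#2 replicate 1 it was 0.0847 for CLDN3, 0.0538 for OCLN, 0.144 for KRT19, 0.0706 for JUP and 0.121 for PKP3. Without shRBM10#2 replicate 2 it was 0.125 for CLDN3, 0.124 for DSP, 0.076 for KRT19, 0.0641 for JUP and 0.0799 for PKP3, and without shScr replicate 1 it was 0.0501 for KRT19. The calls of MUC1 (log2 FC -0.472 to -0.403) and TJP1 (-0.254 to -0.219) with shRBM10#2 ended without any one of the 4 libraries compared. That of OVOL1 with shRBM10#1 ended without any one of all 6 libraries (-0.289 to -0.208). Its call with shRBM10#2 ended without any one of the 4 compared (-0.255 to -0.191). With all libraries, the MUC1 and TJP1 calls with shRBM10#2 also ended with the effective length offset (edgeR adjusted p = 0.0884 and 0.0626). Those of OVOL1 with shRBM10#1 and shRBM10#2 also ended under DESeq2 (DESeq2 adjusted p = 0.0955 and 0.0928).

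Of the 25 mesenchymal list genes, 16 passed the filter and 9 or 10 were at 1 TPM or more in a library, and the summed level was 121.5 to 171.4 TPM, highest in shScr replicate 2. With shRBM10#1, 1 rose (MMP9), 4 fell (AXL, COL5A1, TAGLN and ITGA5) and 11 were not called, a share called of 31.2% against 14.0% of all genes, with a median log2 FC of -0.18 against 0.01 over all genes. With shRBM10#2, 0 rose in edgeR, 4 fell (COL5A1, TAGLN, COL1A1 and ITGA5) and 12 were not called. The share was 25% against 25.9%, with a median of -0.25 against 0.01. S100A4, named after its values were seen, was higher with shRBM10#2 and just missed the threshold (log2 FC 0.60, edgeR adjusted p = 0.0501). COL5A1, a fibrillar collagen chain, was at 3.78 and 4.47 TPM in shScr, 2.67 and 1.86 TPM in the shRBM10#1 libraries and 2.21 and 2.41 TPM in those of shRBM10#2 (log2 FC -0.77 with each, edgeR adjusted p = 0.0017 and 0.00142). It was the only gene of the 4 lists called in the pooled comparison (log2 FC -0.77, edgeR adjusted p = 0.027), a call that ended without shScr replicate 1 (0.327) and without shScr replicate 2 (0.326). With each hairpin alone its call held under all 13 alternatives. TAGLN, the actin-binding protein transgelin, was at 34.3 and 51.9, 27.4 and 27.4, and 30.0 and 27.3 TPM (log2 FC -0.56 and -0.54, edgeR adjusted p = 0.0101 and 0.00822). Both genes, chosen for their calls, were lower in every KD library than in either shScr library. How many of all genes had such a gap was not counted.

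AXL, a receptor tyrosine kinase tied to EMT and to EGFR inhibitor resistance, was at 0.64 and 0.99 TPM in shScr, 0.38 and 0.22 TPM in the shRBM10#1 libraries and 0.49 and 0.49 TPM in those of shRBM10#2. It fell with shRBM10#1 (log2 FC -1.27, edgeR adjusted p = 0.0131) and was not called with shRBM10#2 (-0.65, adjusted p = 0.104 by edgeR). MMP9, a gelatinase, rose with shRBM10#1 by 0.78 on the log2 scale (edgeR adjusted p = 0.0312), from 1.02 and 1.10 TPM to 1.71 and 1.72 TPM. The AXL call ended without shScr replicate 2 (edgeR adjusted p = 0.124) and without shRBM10#1 replicate 2 (0.102). That of MMP9 held under 5 of 13 alternatives and ended under the others, among them DESeq2 (0.0994) and each of the 6 fits without 1 library (edgeR adjusted p 0.0511 to 0.138). TAGLN was at 0.106 with shRBM10#1 without shScr replicate 2, and with shRBM10#2 at 0.0818 without shScr replicate 2 and 0.0905 without shRBM10#2 replicate 2. The ITGA5 call with shRBM10#2 ended without shRBM10#2 replicate 1 (log2 FC -0.297). That of COL1A1 ended without shScr replicate 1 (-0.266), shRBM10#2 replicate 1 (-0.271) or shRBM10#2 replicate 2 (-0.466). With all libraries, the COL1A1 call also ended under DESeq2 (DESeq2 adjusted p = 0.0804) and with the replicate block (edgeR adjusted p = 0.0534).

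Of the 11 other EMT transcription factors, 8 passed the filter, and FOXC2, PRRX1 and GSC were at or near 0. With shRBM10#1, 1 rose, FOXC1, a forkhead factor, which was at 21.9 and 24.0 TPM in shScr and 31.1 and 31.2 TPM with shRBM10#1 but 22.6 and 21.2 TPM with shRBM10#2 (log2 FC 0.54 and -0.01, edgeR adjusted p = 0.000325 and 0.947). With shRBM10#2, 1 fell, TCF3, which encodes the E2A proteins, by 0.28 on the log2 scale (edgeR adjusted p = 0.00952). Each hairpin thus called 1 of 8, or 12.5%, against 14.0% and 25.9% of all genes. The TCF3 call ended without shScr replicate 2 (edgeR adjusted p = 0.0534) and without either shRBM10#2 library (0.123 and 0.0909).

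Among 14 genes of TGF-β signalling, all of which passed the filter, the 3 receptor genes rose with each hairpin. The receptors were set apart from the list after their values were seen. With shRBM10#1, 3 rose (TGFBR1, TGFBR3 and TGFBR2) and 11 were not called, a share called of 21.4% against 14.0% of all genes, and with shRBM10#2, 4 rose (TGFBR3, TGFBR2, TGFBR1 and SMAD4), 1 fell (TGFBI) and 9 were not called, a share of 35.7% against 25.9%. The list's medians were -0.02 and -0.02 against 0.01 over all genes. TGFBR2, the ligand-binding type II receptor, was at 14.8 and 19.1 TPM in shScr, 19.3 and 20.4 TPM in the shRBM10#1 libraries and 27.2 and 25.8 TPM in those of shRBM10#2 (log2 FC 0.34 and 0.71, edgeR adjusted p = 0.0132 and 0.000134). TGFBR3, the co-receptor betaglycan, was at 2.75 and 3.39, 3.93 and 3.37, and 5.36 and 4.99 TPM (log2 FC 0.35 and 0.82, edgeR adjusted p = 0.0327 and 0.000222). TGFBR1, the type I receptor kinase, was at 30.8 and 38.4, 42.9 and 45.5, and 42.7 and 38.2 TPM (log2 FC 0.46 and 0.29, edgeR adjusted p = 0.00152 and 0.014). With shRBM10#2 the TPM ranges of TGFBR1 and shScr overlapped. With shRBM10#1 the TPM ranges of TGFBR3 and shScr overlapped, and that call held under 6 of 13 alternatives (edgeR adjusted p 0.0661 to 0.135 without 1 library, for all but shRBM10#1 replicate 2). TGFBR2 with shRBM10#1 was at 0.0943 without shScr replicate 1 and 0.0762 without shRBM10#1 replicate 2. With shRBM10#2, TGFBR1 was at 0.103 without shScr replicate 1 and 0.213 without shRBM10#2 replicate 1, and SMAD4 was at 0.101 without shScr replicate 1, 0.197 without shRBM10#2 replicate 1 and 0.0816 without shRBM10#2 replicate 2. Between the hairpins (shRBM10#2 against shRBM10#1) the log2 FC was -0.17 for TGFBR1 and was not called (edgeR adjusted p = 0.122), while TGFBR2 (0.38, edgeR adjusted p = 0.00406) and TGFBR3 (0.47, 0.00371) were higher with shRBM10#2.

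TGFBI, an extracellular matrix protein induced by TGF-β in many cells, was at 139 and 155 TPM in shScr, 153 and 144 TPM in the shRBM10#1 libraries and 114 and 117 TPM in those of shRBM10#2 (log2 FC 0.11 and -0.29, edgeR adjusted p = 0.276 and 0.00531). Its fall with shRBM10#2 was not called without shRBM10#2 replicate 1 (edgeR adjusted p = 0.11) or without shRBM10#2 replicate 2 (0.0692).

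**Figure D4:**
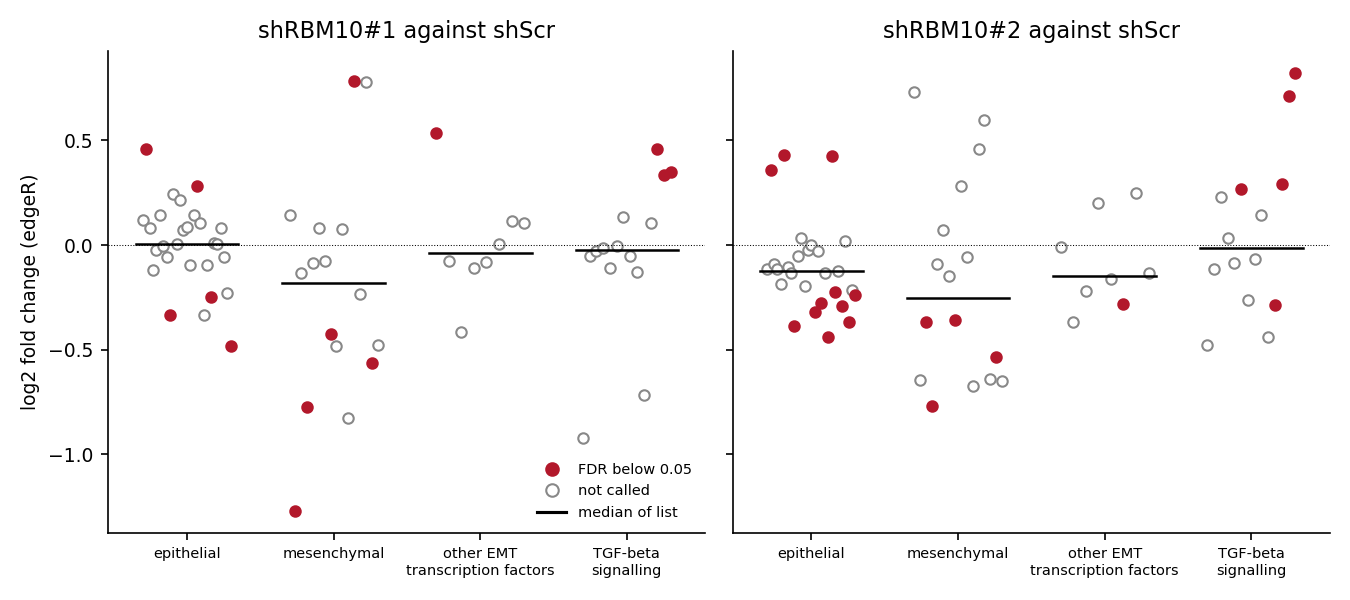
Log2 fold changes from edgeR of the genes of 4 EMT-related lists that passed the filter, with shRBM10#1 (left) and shRBM10#2 (right) against shScr; each point is a gene in alphabetical order, filled points have an adjusted p below 0.05 and black lines are list medians. The medians run from -0.25 (mesenchymal, shRBM10#2) to 0.01 (epithelial, shRBM10#1), and both directions occur among the called epithelial genes with each hairpin.

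The genes whose level across the 6 libraries was most like that of a member are given as a description, since all points share the same libraries. Over log2 CPM and 11405 genes, those most like CDH1 were VPS13D (Pearson r = 0.993) and NR6A1 (0.981), and those most like EPCAM were UQCR10 and PIGF (0.998 each). EPCAM had 203 genes at r above 0.95 and CDH1 had 10. For VIM, among 11406 genes, CTAGE4 (0.975) and PPFIA4 (0.968) were closest, and these values carry the low count of VIM in shScr replicate 1.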

How the data were processed

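PC-9 RNA-Seq libraries (6, of 3 conditions) were deposited as RSEM isoform tables. According to the submitters' processing notes and the study's methods, the authors used hg19, STAR 2.4 and RSEM 1.2.29, then edgeR. The deposited values used were expected counts (estimated counts, not normalized), TPM, the isoform percent of gene TPM, and the effective length. Whether counting used strand is not given in the sources used here. FPKM columns were not used.

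Expected counts were summed per gene symbol and rounded. Genes were kept with filterByExpr by condition (14217 of 26334), scaled by TMM (factors 0.979 to 1.02) and fitted with the edgeR 4.0.16 quasi-likelihood test (R 4.3.3), with one coefficient per condition over all 6 libraries; the pooled comparison fitted the 4 KD libraries as one group. SE is the absolute log2 FC divided by the square root of F, and 95% intervals used the t distribution with the fit's degrees of freedom. p-values were adjusted over all genes tested (Benjamini-Hochberg), and genes with an adjusted p below 0.05 were called. Every member was accounted for, and no fold is given for genes at or under 3 counts per library in the groups compared. Likeness used log2(CPM + 0.1) of genes with a mean of 100 counts or more.

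Alternatives were DESeq2 1.42.0, its size factors in edgeR, no filter, at least 10 counts in every library, a replicate block, an effective length offset, fits of only the 4 libraries compared, one coefficient per condition for the pooled comparison, an absolute log2 FC above 1 as well, and fits without each library. For ratios of TPM the alternatives were expected counts and 0.1 TPM added. The fit was tested on simulated counts. Replicates differed beyond sampling noise (chi-square per degree of freedom 2.86 to 10.1). Each library was treated as 1 sample, although this spread does not show that the libraries came from separate cultures. Libraries held 31953729 to 37557507 expected counts, and floors cover counting error only. Sequences came from RefSeq (GRCh38.p14) and exons from GENCODE release 29.

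Named genes were the members and RBM10, from each list the 2 called genes that rose most and the 2 that fell most under each hairpin, and the 2 genes most like CDH1, EPCAM and VIM; other called list genes, TWIST2 and ZEB1-AS1 were named after their values were seen. The members and lists were chosen with earlier results of these data known. 1 gene of the TGF-β list is not reported here.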

Additional observations from a re-analysis of the deposited data

Results flagged for a closer look

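Effects of the hairpins against shScr differed for RBM10 and for 14 list genes that were named for their calls or after their values were seen. The edgeR quasi-likelihood test of shRBM10#2 against shRBM10#1 was used (Benjamini-Hochberg adjusted p below 0.05), and no member was among them. This comparison called 25.5% of all genes tested. It called 40.7% of the 27 epithelial, 12.5% of the 16 mesenchymal, 25% of the 8 transcription factor and 35.7% of the 14 TGF-β genes tested. Further list genes were called outside the 14, among them mesenchymal LOX (log2 FC 0.762, edgeR adjusted p = 0.0169) and S100A4 (0.835, 0.0124). Epithelial ESRP2 (log2 FC -0.411, edgeR adjusted p = 0.00191), ELF3 (-0.295, 0.0211) and CDH3 (-0.232, 0.0183) were also called outside the 14. RBM10 differed by a log2 FC of -1.11 (adjusted p = 3.65e-06), so the depth of the knockdown differed along with every gene below.

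Among epithelial genes, KRT19 differed by -0.56, OCLN by 0.52, ST14 by -0.31, PKP3 by -0.30, CTNNA1 by 0.29, TJP1 by 0.24, KRT8 by -0.24 and JUP by -0.22. Among transcription factors, FOXC1 differed by -0.55 and TCF3 by -0.28. Among TGF-β genes, TGFBR3 differed by 0.47, TGFBI by -0.40, TGFBR2 by 0.38 and SMAD4 by 0.28. KRT19, FOXC1, OCLN, TGFBI and RBM10 were called under all 13 alternatives.

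The other calls between the hairpins ended without 1 library. Without shRBM10#2 replicate 1 the edgeR adjusted p was 0.143 for CTNNA1, 0.117 for TCF3, 0.0655 for TGFBR2, 0.0626 for TGFBR3, 0.0725 for ST14, 0.11 for PKP3, 0.201 for JUP, 0.248 for KRT8 and 0.187 for SMAD4. Without shRBM10#2 replicate 2 it was 0.0838 for CTNNA1, 0.0917 for TCF3, 0.0674 for ST14, 0.0773 for PKP3, 0.179 for JUP, 0.127 for KRT8 and 0.0736 for SMAD4. Without shRBM10#1 replicate 1 it was 0.0706 for CTNNA1, 0.108 for KRT8 and 0.0708 for SMAD4. TJP1 was called under 6 of 13 alternatives and not without either shScr library, shRBM10#1 replicate 2 or either shRBM10#2 library (0.062 to 0.267), and its log2 FC without 1 library ranged from 0.11 to 0.39.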

How the results depend on the processing

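The called EPCAM rise with shRBM10#2 kept its direction under 13 of 13 alternatives (log2 FC 0.21 to 0.27) and its call under 10, ending without shScr replicate 2 or either shRBM10#2 library. Over the members' 300 alternative values, 283 kept direction and side of the threshold, 3 lost and 2 gained a call, and 12 changed sign. The sign changes were all in uncalled values. CDH2 with shRBM10#1 became 0.0031 with the replicate block, 0.028 with the effective length offset, 0.46 without shScr replicate 1 and 0.27 without shRBM10#1 replicate 2, and 0.16 in the pooled comparison without shScr replicate 1. VIM became -0.13 (shRBM10#1), -0.75 (shRBM10#2) and -0.41 (pooled) without shScr replicate 1, and -0.055 with shRBM10#2 without its replicate 1. CDH1 became 0.0046 with shRBM10#2 without its replicate 2, and in the pooled comparison 0.0058 without shScr replicate 2 and 0.014 without shRBM10#2 replicate 2. Without 1 library these values ranged from -0.36 to 0.46 and, pooled, -0.66 to 0.16 for CDH2, from -0.13 to 2.63 (shRBM10#1), -0.75 to 2.00 (shRBM10#2) and -0.41 to 2.34 (pooled) for VIM, and from -0.098 to 0.0046 and, pooled, -0.028 to 0.014 for CDH1. The cause was not tested.

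Leaving out 1 library, the members called ranged from 0 to 1 in each comparison of single conditions, the 1 being VIM with shRBM10#1 without shScr replicate 2 and EPCAM between the hairpins (0.21, edgeR adjusted p = 0.0417) without shRBM10#1 replicate 2. The genes called ranged from 985 to 2626 with shRBM10#1 (1996 with all libraries), 954 to 4566 with shRBM10#2 (3685), 918 to 3736 between the hairpins (3628) and 0 to 413 in the pooled comparison (230). The pooled count was 0 without either shScr library. Adding an absolute log2 FC above 1 left 267, 185, 169 and 56 genes in these comparisons and 0 members with shRBM10#2. The pooled count was 718 by DESeq2, 52 with the replicate block and 2610 with one coefficient per condition, where RBM10 became called (log2 FC -1.10). RBM10 ranged from -0.59 to -0.50 with shRBM10#1, -1.67 to -1.62 with shRBM10#2, -1.15 to -1.06 between the hairpins and -1.20 to -0.83 pooled without 1 library.

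The shared replicate numbers did not pair the libraries (correlation of deviations -0.0038, -0.019 and -0.014), and the replicate block, with 1755, 3209 and 3175 genes called, left EPCAM with shRBM10#2 as the 1 member called. Of 650 alternative values of the calls of named list genes, 534 kept the call and 116 lost it, and none changed sign. Of 24 alternative marker ratios 14 moved by more than 1 SD of their condition, among them all 6 CDH2 to CDH1 ratios with 0.1 TPM added. Low counts leave wide intervals for CDH2 and, with the spread of the shScr libraries, for VIM, and give no comparison for TWIST1, ZEB1 and ZEB2. With 2 libraries per condition, a difference that missed the threshold is not shown to be absent.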
